A study of Mus musculus with 2 samples.

Results

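The 40 genes described here drive or mark passage through the cell division cycle. They were chosen by symbol from a fixed list, and all 40 were found among the 32285 genes of the deposited tables and had unique molecular identifiers (UMIs, each standing for 1 captured transcript) in both libraries. By role they were 3 D cyclins, 2 E cyclins, 12 genes of DNA replication, 10 mitotic kinases, cyclins and checkpoint genes, 5 centromere genes, 6 motor and spindle genes, and 2 genes of chromosome structure, Mki67 and Top2a. Dorsal skin of male C3H/HeN mice was dissociated and sequenced as single cells in 2 libraries. The control library (Con) came from mice given vehicle, and the TP library from mice given testosterone propionate subcutaneously at 0.5 mg per day as a model of androgenetic alopecia (AGA). Mice were 7 weeks old when the back was shaved for the model and 9 weeks old at harvest, and the skin of 15 mice was pooled into each library. With 1 pooled library per group there was no replicate, so differences between libraries were not tested, and every interval below covers counting error only.

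A dividing cell first builds D cyclins with their kinases, which release the E2F transcription factors from the retinoblastoma protein. E2F then allows transcription of the E cyclins and of the replication genes, and the mitotic genes follow later, when the MuvB complex stops repressing them and starts activating them. In skin, division is concentrated in the matrix of growing hair follicles, where it feeds the hair shaft and its sheaths, and in the basal layer of the interfollicular epidermis (IFE). Cells that move up into the suprabasal epidermis stop dividing, and the dermal papilla cells (DPCs) at the base of the follicle rarely divide.

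After filtering, 39076 control and 18542 TP cells were kept, with medians of 2045.5 and 4812 UMIs per cell. Over the mitochondrial limit were 3465 of 45709 control barcodes and 5871 of 25931 TP barcodes. With all deposited barcodes the ratio of TP over control for the 37 genes other than the D cyclins was 0.540, beside 0.560 in kept cells. The libraries shared 303 cell barcodes, of which 184 were kept in both. Cells fell into 31 clusters after the 40 genes, other cell cycle genes and histone genes had been kept out of the clustering. Of these, 23 clusters formed 13 classes named by marker genes, each written with "-like", and 8 remained unnamed. The unnamed clusters held 43.2% of control cells and 15.2% of TP cells, and 56.0% and 43.7% of the mitotic UMIs described below.

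Over all kept cells, the cell cycle genes were lower in TP-treated skin than in control. Levels are given as counts per 1000000 UMIs of the same cells (CPM). The 22 mitotic genes (all those of mitosis, centromere, motors and chromosome structure except Cit) together had a level of 2410.2 CPM in control skin and 1252.5 CPM after TP. The ratio of TP over control was 0.520 (95% interval 0.516 to 0.523). The 12 replication genes went from 604 to 446 CPM, a ratio of 0.739 (0.730 to 0.747). The ratio was thus nearer to 1 for replication than for mitosis. In bulk sums of this kind, fewer cycling cells and less RNA per cycling cell cannot be told apart.

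Of the 40 genes, 38 had a ratio of TP over control below 1. Of these, 9 were at least 2-fold lower in TP, and none was at least 2-fold higher. Among all 17576 genes with 50 or more UMIs, 10.5% were at least 2-fold lower and 8.23% at least 2-fold higher. The median log2 ratio of the 40 genes was -0.80, beside -0.23 over all genes measured. Scaling by trimmed mean factors (TMM) moved the median of all genes to 0.02, and under it 33 of the 40 genes were below 1 and 4 were at least 2-fold lower, beside 6.02% of all genes lower and 11.3% higher.

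**Figure D1:**
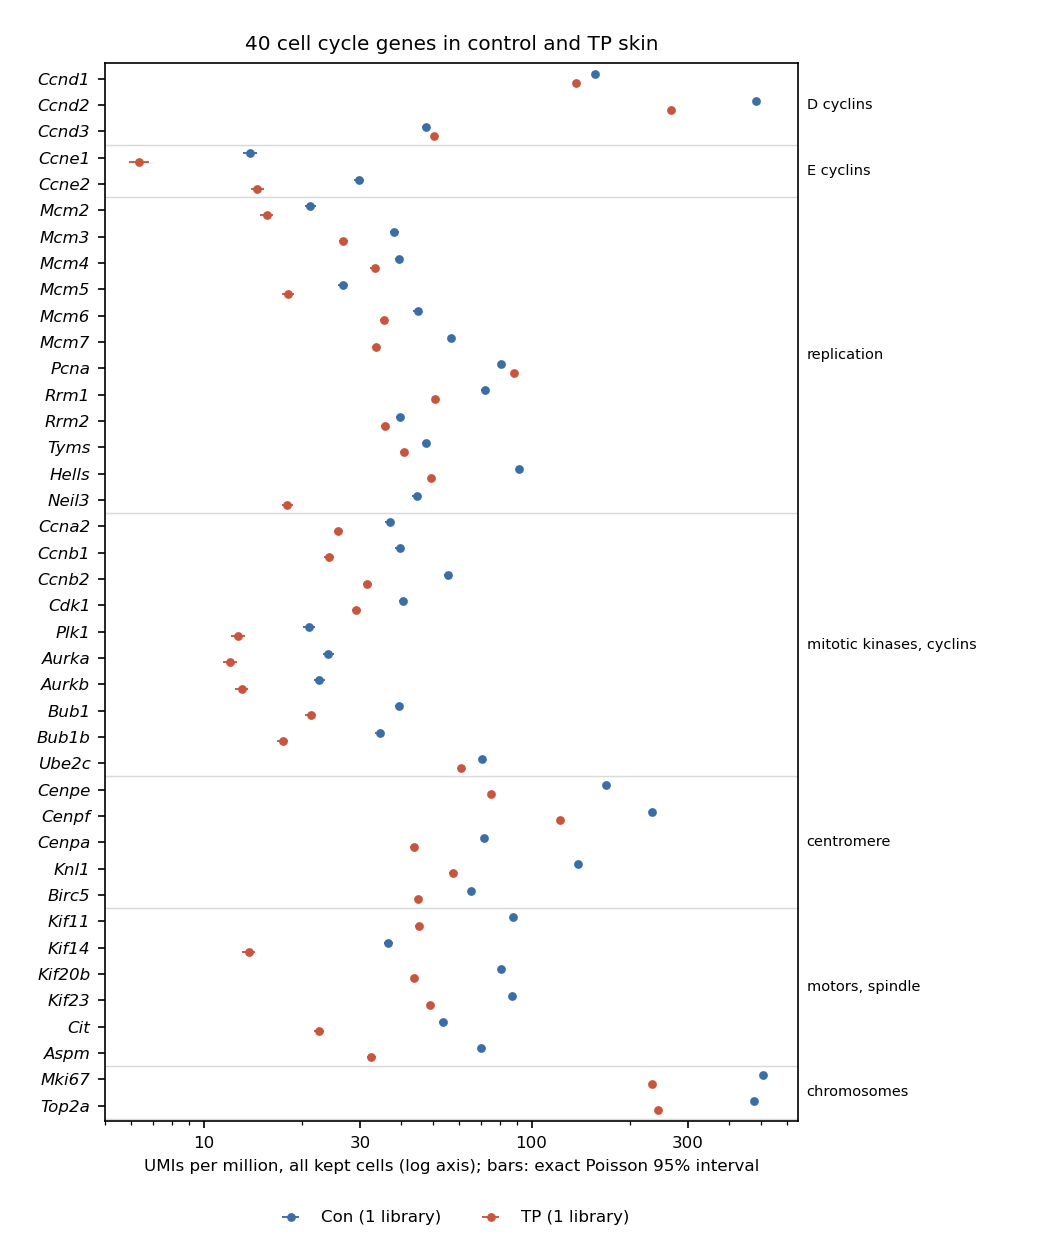
Level in CPM of each of the 40 genes over all kept cells on a log axis, in the Con library (blue) and the TP library (red), grouped by role; bars are exact Poisson 95% intervals. The red point lies to the left of the blue one for 38 genes, and to the right for Pcna and Ccnd3 (for 7 genes under TMM scaling).

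Among the D cyclins, Ccnd2, which the hair matrix uses heavily, went from 483.7 CPM in control to 267.0 in TP, with the ratio 0.552. Ccnd1, the D cyclin that growth factor signals induce in many epithelia, was at 156 in control and 137 in TP. The ratio of Ccnd1 was 0.876, but 1.04 under TMM scaling. It was 1.34 when each cluster was given its control share of UMIs, and 1.09 with the TP shares. Ccnd3, the third of these cyclins, was at 47.7 and 50.4, a ratio of 1.06 (1.02 to 1.096). The 3 D cyclins did not share 1 direction. Both E cyclins, which with Cdk2 start replication, were at least 2-fold lower in TP. Ccne1 went from 13.9 to 6.35 CPM, a ratio of 0.458, and Ccne2 from 29.7 to 14.6, a ratio of 0.491. Under TMM scaling these ratios were 0.545 and 0.584, and with the control shares 0.836 and 0.834, none of them 2-fold.

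Among the replication genes, the ratios ran from 0.404 to 1.095. Pcna, the clamp that holds DNA polymerase on its template, was at 80.9 CPM in control and 88.6 in TP, the largest ratio of the 40 genes at 1.095 (1.07 to 1.13). Rrm2, the regulated subunit of ribonucleotide reductase, had the ratio 0.899 (0.862 to 0.937). Tyms, which makes thymidylate, had 0.858. The 6 subunits of the replicative helicase were all lower in TP, with Mcm4 at 0.842, Mcm6 at 0.792, Mcm2 at 0.735, Mcm3 at 0.698, Mcm5 at 0.681 and Mcm7 at 0.588. Under TMM scaling Mcm4 was at 1.002, Tyms at 1.02 and Rrm2 at 1.07. When each cluster was given its control share of UMIs, Mcm2, Mcm4, Mcm5 and Mcm6 lay between 1.02 and 1.12. Tyms was then at 1.24 and Rrm2 at 1.28. With the TP shares Mcm4 was at 1.06, Tyms at 1.07 and Rrm2 at 1.18. Pcna, Rrm2 and Tyms thus lay above all 6 helicase subunits. Rrm1, the large subunit of the reductase, had 0.706 (1.018 with the control shares), and Hells, a chromatin remodeler, 0.539. Neil3, a DNA glycosylase that acts on replication-blocking crosslinks, was the replication gene with the lowest ratio, going from 44.6 to 18.01 CPM (0.404, 0.384 to 0.424).

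All 10 mitotic kinases, cyclins and checkpoint genes were lower in TP, and none reached 2-fold. Their ratios ran from 0.503 for Aurka, the spindle pole kinase, to 0.862 for Ube2c, the conjugating enzyme of the anaphase promoting complex. Cdk1, the kinase that carries cells into mitosis, went from 40.5 to 29.2 CPM, a ratio of 0.721. Its partners Ccna2, Ccnb1 and Ccnb2 had ratios of 0.697, 0.610 and 0.569. Cyclin A, which acts earliest of these partners, thus had the ratio nearest to 1. The kinases Plk1 and Aurkb had 0.607 and 0.579, and the checkpoint genes Bub1 and Bub1b 0.538 and 0.506. Under TMM scaling Ube2c was at 1.03. When each cluster was given its control share of UMIs, Ube2c was at 1.30, Cdk1 at 1.14, Ccna2 at 1.13 and Aurkb at 1.02.

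The centromere and motor genes had lower ratios than the kinases as groups, with median log2 ratios of -0.93 and -1.04 beside -0.75. Knl1, the scaffold on which kinetochores bind microtubules, went from 139 to 57.4 CPM (0.414, 0.403 to 0.426). Cenpe, a kinetochore motor, had the ratio 0.445 and Cenpf, a kinetochore protein, 0.524. Cenpa, the histone variant that marks centromeres, had 0.611, and Birc5, or survivin, of the chromosomal passenger complex, 0.689. When each cluster was given its control share of UMIs, Birc5 was at 1.106, and with the TP shares at 0.907. Kif14, a motor of the midbody, had the lowest ratio of the 40 genes and went from 36.5 to 13.7 CPM (0.376, 0.355 to 0.397). Its partner Cit, citron kinase, had 0.419, and Aspm, which organizes spindle poles, 0.462. Kif11, Kif20b and Kif23, motors of the spindle and its midzone, lay between 0.516 and 0.564. Mki67, the proliferation marker that coats mitotic chromosomes, went from 509.9 CPM in control to 233.4 in TP, a ratio of 0.458. Top2a, which untangles sister chromatids, went from 476.4 to 243.3, a ratio of 0.511.

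The promoters of the mitotic and replication genes differed in the short motifs they held. They are shown because these motifs are the known binding letters of MuvB and E2F. Promoter sequence from RefSeq (GRCm38.p6, 250 bases before to 50 after the annotated start) was matched for 34 of the 40 genes. The cell cycle homology region (CHR), searched as TTTGAA or TTTAAA on both strands, was in 19 of the 20 mitotic promoters (95%), the exception being that of Bub1. It was in 27.6% of all 32851 promoters and in 3 of 12 replication promoters. E2F letters, searched as TTTCCCGC, TTTGGCGC or TTTCGCGC on both strands, were in 5 of 12 replication promoters (41.7%), in 1 of 20 mitotic promoters, that of Cdk1, and in 1.84% of all. CCAAT boxes, searched as CCAAT on both strands, were in 17 of 20 mitotic promoters, 9 of 12 replication promoters and 37.4% of all. TTTAAA reads the same on both strands, and the E2F words can overlap one another. A match is a description of letters and was not tested as a binding site. Windows of 30 bases around 1 match each are given below in the gene's own direction, with the matched motif in capitals, the first 5 holding a CHR and the last 3 an E2F word.

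Cdk1 (chr10:69352910-69352939, minus strand, motif 15 bases before the start): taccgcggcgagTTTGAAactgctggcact
Ccnb1 (chr13:100786511-100786540, minus strand, motif 42 bases before the start): agcggcccggggTTTAAAcctaagcccggc
Plk1 (chr7:122159394-122159423, plus strand, motif 29 bases before the start): gcgggtttgtatTTTAAAtccccgcggcca
Kif23 (chr9:61946780-61946809, minus strand, motif 2 bases after the start): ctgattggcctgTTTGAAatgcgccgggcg
Ube2c (chr2:164769888-164769917, plus strand, motif 29 bases before the start): ggagggttgcaaTTCAAAcgcgggcggcgg
Hells (chr19:38930917-38930946, plus strand, motif 62 bases before the start): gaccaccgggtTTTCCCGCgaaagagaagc
Mcm6 (chr1:128359797-128359826, minus strand, motif 110 bases before the start): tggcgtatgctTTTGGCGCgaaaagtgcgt
Mcm5 (chr8:75109345-75109374, plus strand, motif 153 bases before the start): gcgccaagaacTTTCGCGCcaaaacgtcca

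In these 5 windows the CHR lies between 42 bases before and 2 bases after the annotated start, with a CCAAT box read in reverse (attgg) just upstream in the window of Kif23.

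The 4 clusters with the highest mitotic levels over both libraries together held a larger part of the mitotic UMIs than of the cells. They were picked by these levels, and several other clusters in each library also held more than their part, such as cluster 10 in control and cluster 9 in TP. Clusters 0, 6 and 14 and the germinative layer-like cluster, led by Shh and Edar, together held 23.6% of control cells and 42.6% of their mitotic UMIs. In TP they held 9.36% of cells and 39.3% of mitotic UMIs. Cluster 0, led by Creb5, Gask1b and Fzd5 and scoring nearest to the inner root sheath markers without reaching the limit for a name, made up 12.4% of control cells and 1.90% of TP cells. Cluster 14, led by Mt2, histone genes and Pclaf, made up 3.26% and 3.85% of cells and 10.6% and 23.4% of mitotic UMIs. In control, cluster 0 held the largest part of 24 of the 40 genes, and in TP cluster 14 held the largest part of 38. The shift was therefore in where the transcripts lay as well as in their total.

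Within these 4 clusters the mitotic ratio of TP over control lay near 1. Because they were picked for high mitotic levels over both libraries together, ratios near 1 can be partly built in. Cluster 0 went from 4743 to 5020 CPM, with the ratio 1.06 (1.04 to 1.08). Cluster 6, led by Tmtc1, Ntn1 and Eda, had the ratio 0.991 (0.967 to 1.01). Cluster 14 had 1.104 (1.09 to 1.12), and the germinative layer-like cells 0.969 (0.939 to 0.999), which TMM scaling turned to 1.09. These 4 ratios lie closer to 1 than the ratio of 0.520 over all cells. Other unnamed clusters lay on either side. Cluster 2, led by haemoglobin genes and of low depth (medians of 702.5 and 651 UMIs), had a ratio of 0.524 (0.473 to 0.579) with 3614 control and 274 TP cells, and cluster 22 had 0.497. Cluster 3, led by Selenbp1 and Krt35, went from 2472 to 3061 CPM (1.24, 1.20 to 1.27), and cluster 16 had 1.01. When each cluster was given the share of UMIs it had in control, the ratio of the 37 genes other than the D cyclins was 0.914, beside 0.560 without this weighting, and none of the 40 genes was 2-fold lower, with 3.44% of all genes lower under the same weighting. With the shares of TP in both libraries it was 0.831. Of the 40 genes, 25 were below 1 and 15 above with the control shares, and 32 and 8 with the TP shares.

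In the germinative layer-like cells no member reached 2-fold, beside 2.29% of genes lower and 1.14% higher there. The ratio was above 1 for 21 genes and below 1 for 19. The largest were Ube2c at 1.67 (1.42 to 1.97), Pcna at 1.47 (1.26 to 1.72) and Cdk1 at 1.46 (1.15 to 1.86). The smallest were Neil3 at 0.522 (0.389 to 0.697), Ccnd3 at 0.542 (0.329 to 0.878) and Knl1 at 0.670 (0.582 to 0.770). Mki67 was at 1016 CPM in control and 937 in TP. In cluster 0, which was less frequent in TP, the replication genes were higher in TP by a ratio of 1.54 (1.47 to 1.61), and Pcna at 2.13 (1.89 to 2.39), Tyms at 2.09 (1.81 to 2.40) and Ccnd1 at 2.04 (1.88 to 2.20) were at least 2-fold higher (1.28% of genes there). Cit at 0.659, Kif14 at 0.770 and Neil3 at 0.820 had the smallest ratios of cluster 0. In cluster 14 no gene of the 40 reached 2-fold (1.39% of genes lower, 1.53% higher), and Ube2c at 1.44 (1.35 to 1.54), Cdk1 at 1.41 (1.27 to 1.56) and Aurka at 1.34 (1.14 to 1.57) had the largest ratios. The E cyclins had the smallest there, with Ccne1 at 0.653 (0.547 to 0.780) and Ccne2 at 0.724 (0.637 to 0.823), then Hells at 0.8501. In cluster 6 the ratios ran from Ccne1 at 0.624 (0.412 to 0.919), Kif14 at 0.777 (0.641 to 0.936) and Plk1 at 0.819 (0.606 to 1.09) to Ube2c at 1.37 (1.15 to 1.62), Ccnd1 at 1.41 (1.246 to 1.59) and Pcna at 1.53 (1.33 to 1.75).

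The IFE basal-like cells, defined by Krt14 and Krt5, were 7.69% of control cells and 16.9% of TP cells. Their mitotic genes went from 2408 to 2011 CPM, with the ratio 0.835 (0.820 to 0.851). None of the 40 genes reached 2-fold in either direction (4.15% of genes lower, 1.5% higher), and 32 were below 1. The median log2 ratio of the 40 genes was -0.154. The TMM factor of TP over control, a trimmed mean over all genes, was 0.868 in this class. Its genes as a whole were thus also lower in TP, and the share of all genes below 1 was not counted. Ccnd2 had the smallest ratio, going from 328 to 177 CPM (0.539, 0.510 to 0.570), followed by Kif14 at 0.6668 (0.564 to 0.790) and Mcm7 at 0.701 (0.611 to 0.805). Ccnd1 had the largest, going from 172 to 210 (1.22, 1.14 to 1.30), then Ccnd3 at 1.19 (0.983 to 1.44) and Pcna at 1.14 (1.03 to 1.26). Mki67 went from 461 to 340 CPM (0.738). Ccnd1 and Ccnd2 thus pointed in opposite directions over the class. It joined clusters 4 and 9, with mitotic ratios of 0.757 and 0.903. In cluster 4 all 3 D cyclins were below 1 (0.420 to 0.991). In cluster 9 they ran from 0.649 to 1.38, and 2 of them were above 1. Mitotic UMIs per cell went the other way from the level in CPM, at 5.81 in control and 9.26 in TP, with more UMIs per TP cell in all.

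The outer bulge-like cells had Lgr5 and Sox9 among their leading genes. Of the outer bulge markers, 5 were found in at least 10% of these cells. The outer bulge-like cells had higher cell cycle levels in TP. They were 1.56% of control cells and 8.57% of TP cells. Their mitotic genes were at 1411 CPM in control and 1947 in TP (1.38, 1.32 to 1.45), and their replication genes at 488 and 883 (1.81, 1.68 to 1.96). Of the 40 genes, 38 were above 1, and 5 were at least 2-fold higher (2.90% of genes there). These were Tyms at 2.66 (1.94 to 3.74), Cdk1 at 2.51 (1.73 to 3.76), Pcna at 2.37 (1.94 to 2.93), Mcm2 and Rrm2. The 5 are a kinase and 4 replication genes. Ccnd2 was the 1 gene at least 2-fold lower (0.477, 0.434 to 0.525, beside 4.37% of genes), and Kif14 (0.849, 0.596 to 1.24) and Ccnb2 (1.09, 0.821 to 1.46) followed. Among other cell cycle genes listed, 36 of 38 replication genes and 62 of 72 mitotic genes were above 1 here. The share of all genes above 1 was not counted. The TMM factor of TP over control, a trimmed mean over all genes, was 0.886 in this class. With cell cycle genes left among the clustering features the mitotic ratio of the class was 0.913. Clusters are then formed partly by the genes measured, so this value cannot decide the direction. The class then held 600 control and 1463 TP cells, beside 608 and 1589 otherwise. A cluster led by histone genes then held 2000 control and 1188 TP cells.

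The melanocyte-like cells, defined by Dct, Pmel and Tyr, had a mitotic ratio of 1.06 (1.01 to 1.12), which was 0.936 with doublets kept, and a replication ratio of 1.72 (1.56 to 1.90). Of the 39 genes with enough UMIs, 7 were at least 2-fold higher (4.84% of genes there) and 1 at least 2-fold lower (10.3%). Mcm2 went from 15 to 54 UMIs (4.29, 2.39 to 8.19), Tyms had the ratio 2.59 (1.81 to 3.76) and Mcm3 2.57 (1.79 to 3.72). Cit was lowest at 0.489 (0.314 to 0.747), then Kif14 at 0.607 (0.371 to 0.973) and Kif11 at 0.645 (0.453 to 0.910). As groups, the replication genes had a median log2 ratio of 0.87 in these cells, and the motor and spindle genes -0.60. Their ranges overlap, with ratios of 0.740 to 4.29 and 0.489 to 1.04. The class had 486 control and 183 TP cells, so single genes rest on few UMIs.

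The inner root sheath-like cells, 17.9% of control and 6.17% of TP cells, had a mitotic ratio of 0.627 (0.616 to 0.639). Ccnd1 was the 1 gene above 1, going from 212 to 380 CPM (1.80, 1.72 to 1.88). Ube2c and Pcna followed at 0.973 (0.882 to 1.07) and 0.941 (0.851 to 1.04). Neil3 at 0.471 (0.402 to 0.549) and Kif14 at 0.484 (0.409 to 0.570) were at least 2-fold lower (3.58% of genes there), and Ccne2 was at 0.497 (0.406 to 0.605) before the added UMI. This class joined clusters 1, 10, 17 and 25, with mitotic ratios of 0.788, 0.864, 0.652 and 0.581, of which 3 lie above that of the class. Cluster 10, led by Cdh6, made up 6.13% of control cells and 1.04% of TP cells, and cluster 17, led by Krt71 and Krt25, 2.39% and 1.05%.

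**Figure D2:**
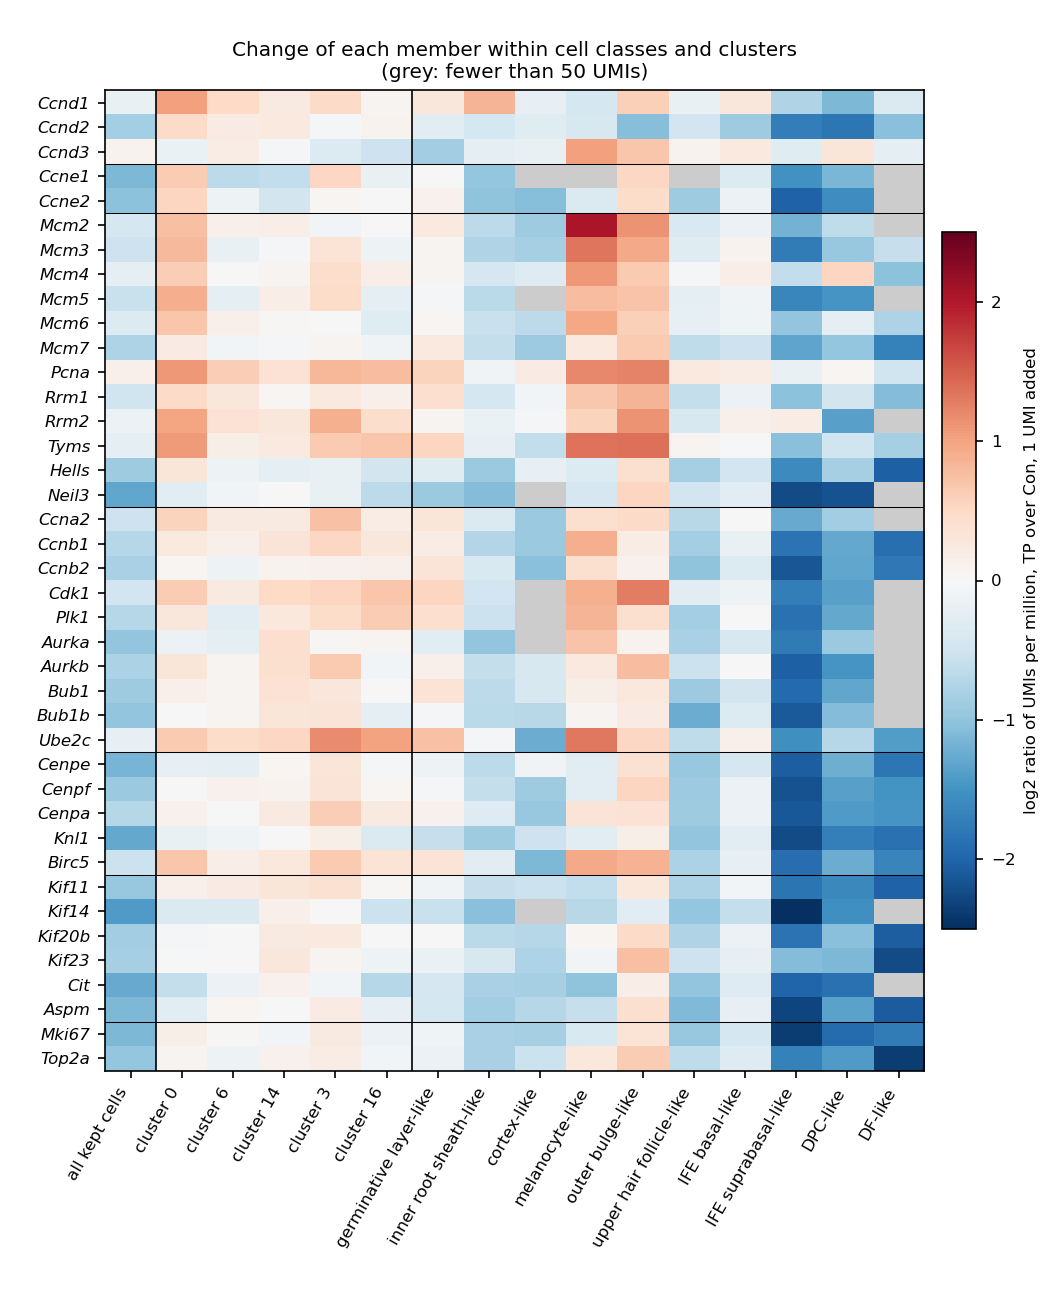
Log2 ratio of CPM, TP over Con with 1 UMI added, for each of the 40 genes (rows, by role) over all kept cells, in 5 unnamed clusters and in 10 named classes (columns); red is higher in TP, blue lower, and grey marks genes with fewer than 50 UMIs. Red fills most of the outer bulge-like column and the replication rows of the melanocyte-like column, and deep blue fills most of the suprabasal, DPC-like and dermal fibroblast (DF)-like columns.

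The lowest mitotic ratios lay in IFE suprabasal-like, myeloid-like, DF-like, endothelial-like and DPC-like cells. Myeloid-like cells, 63 in control and 213 in TP, had 0.287 (0.241 to 0.343), and endothelial-like cells, 129 and 213, had 0.311 (0.270 to 0.359). Of the 8 genes with enough UMIs in myeloid-like cells, the smallest ratios were those of Ccnd2 at 0.145 (0.0821 to 0.255), Cenpf at 0.168 and Top2a at 0.247. The largest were those of Cenpa at 0.442, Pcna at 0.657 and Ccnd3 at 4.10 (2.41 to 7.58). In endothelial-like cells the 8 genes ran from Top2a at 0.172 (0.114 to 0.256), Mki67 at 0.312 and Ccnd2 at 0.327 to Ccnd3 at 1.097, Ccnd1 at 1.13 and Pcna at 1.252 (0.703 to 2.33). In IFE suprabasal-like cells, defined by Krt1 and Krt10, the mitotic genes went from 667 to 175 CPM (0.263, 0.255 to 0.270), and 34 of the 40 genes were at least 2-fold lower (11.7% of genes there). Kif14 had the smallest ratio at 0.176 (0.132 to 0.234), then Mki67 at 0.194 (0.181 to 0.207) and Aspm at 0.203 (0.171 to 0.241). Rrm2 at 1.14 (0.998 to 1.31), Pcna at 0.876 (0.811 to 0.948) and Ccnd3 at 0.810 (0.715 to 0.918) had the largest. In DPC-like cells the mitotic ratio was 0.372 (0.357 to 0.388) and 27 of the 40 were at least 2-fold lower (6.80%). This class joined clusters 8, 15, 18 and 28, with mitotic ratios of 0.218, 0.217, 0.614 and 0.231. Each of these clusters held cells of both libraries, but in different proportions. With cell cycle genes among the clustering features the ratio of the class was 0.215. Cluster 8 held 2241 of 4289 control cells and 546 of 1791 TP cells, and cluster 18 held 449 and 675. Neil3 had the smallest ratio there at 0.215 (0.138 to 0.326), then Mki67 at 0.263 (0.238 to 0.290) and Cit at 0.271 (0.187 to 0.384). Mcm4 at 1.45 (1.22 to 1.71), Ccnd3 at 1.23 (1.15 to 1.32) and Pcna at 1.03 (0.915 to 1.17) were above 1 in the same cells. In DF-like cells the ratio was 0.289 (0.263 to 0.318), and 19 of the 25 genes with enough UMIs were at least 2-fold lower (10.9%). Their ratios ran from 0.195 for Top2a (0.155 to 0.245), 0.216 for Kif23 (0.121 to 0.399) and 0.244 for Aspm (0.144 to 0.425) to 0.750 for Mcm3 (0.336 to 1.97), 0.790 for Ccnd1 (0.587 to 1.08) and 0.857 for Ccnd3 (0.638 to 1.17). In upper hair follicle-like cells, defined by Krt79, it was 0.567 (0.546 to 0.588), and Bub1b at 0.426 (0.310 to 0.587), Aspm at 0.464 (0.373 to 0.578) and Ccnb2 at 0.501 (0.384 to 0.657) were at least 2-fold lower once 1 UMI was added (2.72%). Pcna at 1.18 (1.01 to 1.39), Ccnd3 at 1.07 (0.909 to 1.253) and Tyms at 1.06 (0.825 to 1.38) were above 1. In cortex-like cells Ube2c at 0.405 (0.235 to 0.664), Birc5 at 0.441 and Ccne2 at 0.448 had the smallest ratios of 33 genes, and Rrm1 at 0.942, Rrm2 at 0.960 and Pcna at 1.15 (0.844 to 1.55) the largest. In dermal sheath cup-like cells the 6 genes with enough UMIs were Top2a at 0.412 (0.286 to 0.596), Mki67 at 0.453, Cenpf at 0.601, Ccnd2 at 0.887, Ccnd1 at 0.92 and Ccnd3 at 2.57 (1.1 to 7.34). This class was cluster 29, led by Myh11, Tagln and Acta2. It scored 6.14 on the dermal sheath cup markers and 4.34 on the smooth muscle markers, Myh11 among the latter. Smooth muscle cells thus cannot be told apart in it. Across the 13 named classes, which leave out the unnamed clusters, the interval of the mitotic ratio lay above 1 in 2 and below 1 in 11. This count depended on how cells were assigned and scaled. Cortex-like cells went from 0.638 to 1.07 at clustering resolution 0.5 and to 0.347 with cell cycle genes among the clustering features. The cortex-like class held 1117 control and 269 TP cells at first. It held 3410 and 430 at resolution 0.5, and 424 and 94 with cell cycle genes, so different cells are compared. With those genes dermal sheath cup-like cells went from 0.556 to 1.14. The class then also took in a cluster led by Lrrc15, with 386 control and 145 TP cells, so the cells compared differ. Melanocyte-like cells went to 0.936 with doublets kept, and the changed values of germinative layer-like and outer bulge-like cells are given above.

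Transcripts that mark other cells are given beside these ratios. Of the inner root sheath markers Krt25, Krt27, Krt28, Krt71, Krt72, Krt73 and Tchh, the other named classes held 5.30 to 9.88 UMIs per cell in control and 1.93 to 8.09 in TP. DF-like cells held 5.88 and 2.61 of these UMIs per cell, DPC-like cells 5.94 and 2.41, outer bulge-like cells 6.03 and 2.45, and IFE basal-like cells 5.30 and 2.11. Mitotic UMIs per cell were 2.68 and 2.26 in DF-like cells, 2.31 and 1.70 in DPC-like cells, and 2.05 and 0.803 in DPC-like cluster 15, led by Sostdc1 and Fgf10. Each of these values was higher in control. When the level per cell of cluster 15 was subtracted in each library, the mitotic ratio was 0.784 in DF-like, 0.961 in upper hair follicle-like, 0.405 in suprabasal, 1.18 in IFE basal-like, 1.07 in germinative layer-like, 0.815 in inner root sheath-like and 3.22 in outer bulge-like cells. For cortex-like and dermal sheath cup-like cells it was 1.62 and 1.05, for melanocyte-like cells 1.57 and for myeloid-like cells 0.420. In endothelial-like cells it was 0.316, close to the 0.311 without subtraction. DPC-like cells are left out here, since cluster 15 is a part of that class. For IFE basal-like, germinative layer-like, cortex-like and dermal sheath cup-like cells the subtraction thus turned the direction, and beyond this subtraction the part of free RNA in the results was not tested.

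**Figure D3:**
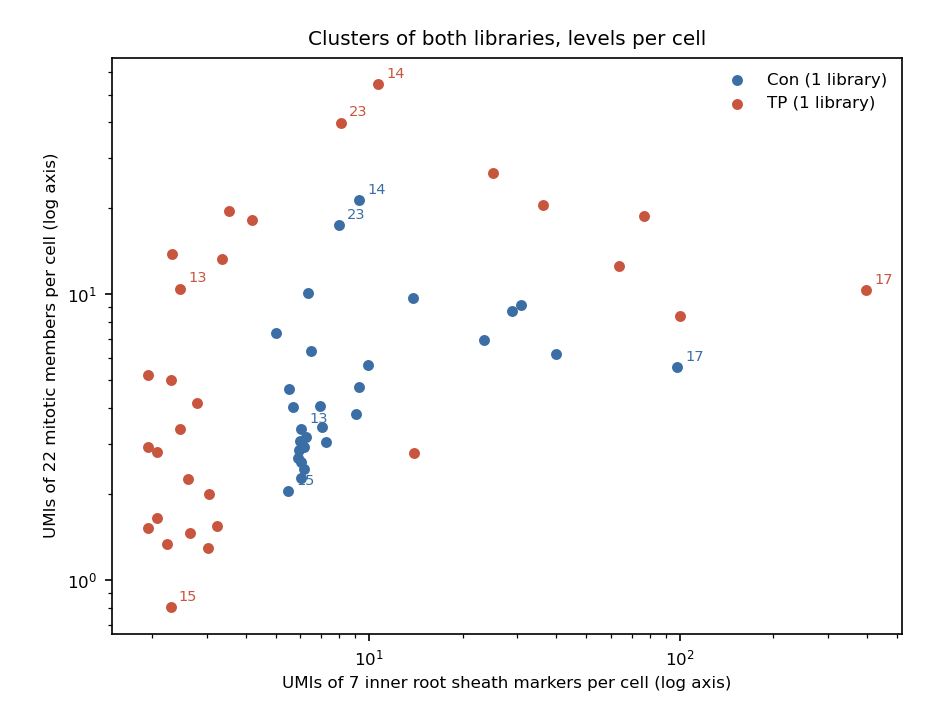
UMIs of the 22 mitotic genes per cell against UMIs of 7 inner root sheath markers per cell (both log axes) for each cluster in Con (blue) and TP (red), with the numbers of 5 clusters printed. Control clusters start at about 5 marker UMIs and 2 mitotic UMIs per cell, and TP clusters reach below both values. Clusters 28 and 30, with few TP cells, are left out.

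Counted by cell, fewer TP cells held several mitotic transcripts. Cells were thinned to 1000 UMIs each, and 5362 shallower cells of control and 872 of TP were dropped. Then 43.97% of control cells and 16.6% of TP cells had UMIs of at least 2 of the 22 mitotic genes. Without thinning the shares were 66.5% and 36.6%. In cells taken as a measure of background, DPC-like cluster 15 and suprabasal clusters 5 and 7, the shares were 11.4% to 12.4% in control and 0.967% to 1.52% in TP. Median depths before thinning were 3159 and 6056 UMIs in cluster 15. These clusters were chosen after the data were seen and belong to classes described above. Whether their mitotic UMIs were free RNA or the cells' own was not tested.

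With at least 5 mitotic genes required, the same 3 clusters held 0.209% to 1.00% of control cells and no TP cell, which by the limit of 3 cells allows shares of up to 0.149%, 0.175% and 0.580% in clusters 5, 7 and 15. All kept cells then gave 13.2% in control (12.9% to 13.6%) and 7.22% in TP (6.84% to 7.61%). IFE basal-like cells gave 9.24% (8.19% to 10.4%) and 10.1% (9.10% to 11.3%), intervals that overlap, while at 2 genes they gave 34.5% and 17.7%. Outer bulge-like cells gave 4.95% (3.23% to 7.22%) and 9.15% (7.73% to 10.7%), which do not. Germinative layer-like cells gave 35.8% (31.4% to 40.4%) and 31.2% (24.9% to 38.1%), and inner root sheath-like cells 14.6% and 9.35%. For IFE basal-like, outer bulge-like, melanocyte-like and cortex-like cells the order of the libraries at 5 genes was the opposite of that at 2 genes. At 2 genes outer bulge-like cells gave 30.9% and 21.2%. Melanocyte-like cells gave 40.6% and 17.1% at 2 genes, and 6.65% (4.46% to 9.47%) and 7.32% (3.84% to 12.4%) at 5. Cortex-like cells gave 21.0% and 4.14% at 2 genes, and 1.17% (0.626% to 2.00%) and 2.26% (0.832% to 4.84%) at 5, from 13 and 6 cells. With doublets kept, a cluster of 3598 control and 435 TP cells also took this name, so the class then held other cells. At 5 genes the intervals of the libraries overlap in IFE basal-like, melanocyte-like and cortex-like cells. They also overlap in DF-like cells, at 1.1765% (2 of 170 cells) in control and 1.0955% (7 of 639) in TP. These DF-like counts are small. At 2 genes DF-like cells gave 19.4% and 3.13%. Overlap at 5 genes was also found in DPC-like cells (1.35% and 0.716%), and in endothelial-like and myeloid-like cells, with 1 to 4 such cells per library. In suprabasal cells the intervals do not overlap, at 1.12% (0.799% to 1.52%) and 0.1275% (0.0468% to 0.277%).

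**Figure D4:**
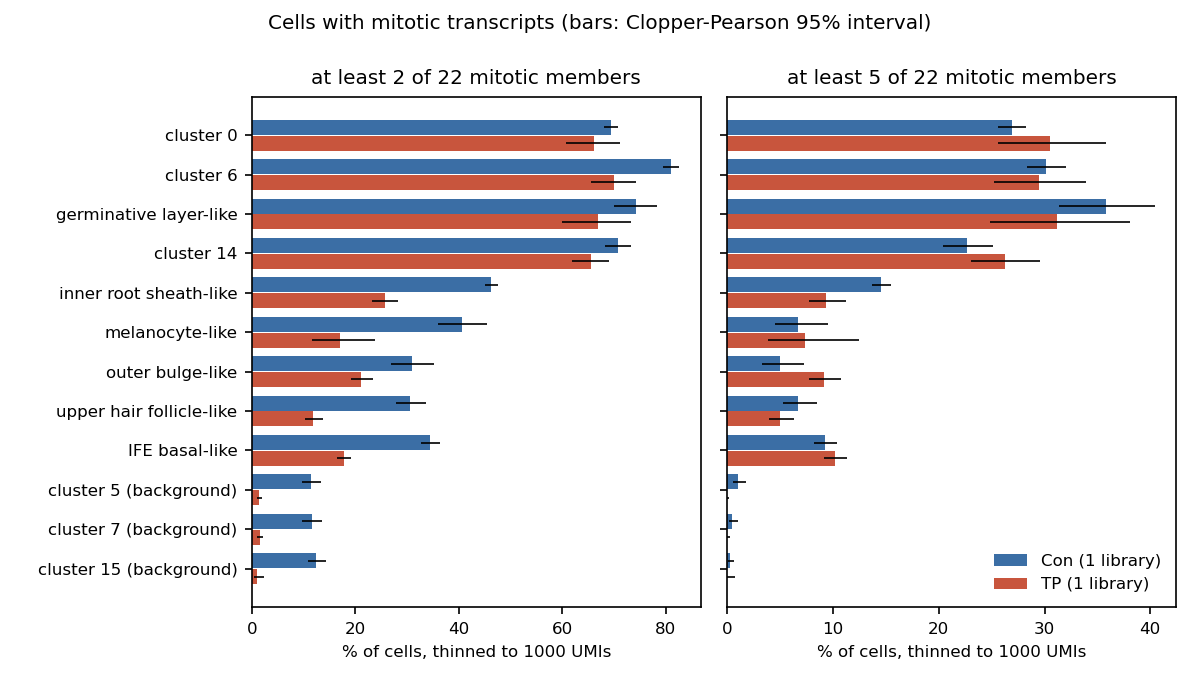
Percent of cells, after thinning each to 1000 UMIs, with UMIs of at least 2 (left) or at least 5 (right) of the 22 mitotic genes, in Con (blue) and TP (red); whiskers are Clopper-Pearson 95% intervals. At 2 genes clusters 5, 7 and 15 hold 11.4% to 12.4% of control cells, and at 5 genes 0.209% to 1.00%, while IFE basal-like cells are at 9.24% in Con and 10.1% in TP.

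Replication and mitotic genes were also set against each other within the same cells. Over all kept cells there were 0.250 replication UMIs per mitotic UMI in control and 0.356 in TP. The ratio went from 0.223 (0.215 to 0.231) to 0.250 (0.243 to 0.256) in IFE basal-like cells, from 0.346 to 0.454 in outer bulge-like cells and from 0.252 to 0.409 in melanocyte-like cells. It went from 0.277 to 0.314 in the germinative layer and from 0.199 to 0.222 in the inner root sheath. Each of these 5 classes had the higher value in TP. Larger rises lay in classes with low mitotic levels, such as suprabasal (0.362 to 0.780) and DPC-like cells (0.350 to 0.680). Clusters 4, 6 and 16 went from 0.217 to 0.222, 0.247 to 0.263 and 0.230 to 0.242, with intervals that overlap. The part of free RNA or of cluster make-up in these rises was not tested. Of the clusters and classes with values in both libraries, clusters 1, 3 and 14 did not have the higher value in TP. Cluster 1, the inner root sheath-like cluster with most cells, had 0.184 and 0.182, and cluster 3 had 0.214 and 0.213, with intervals that overlap. Cluster 14 had 0.401 (0.392 to 0.410) in control and 0.387 (0.3799 to 0.394) in TP. In cluster 15 the ratio went from 0.407 to 1.36.

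The D cyclins marked different cells. Ccnd2 was highest in the germinative layer-like cells of control, at 1351.5 CPM, and in cluster 6 of TP, at 1469. Ccnd1 was highest in cluster 25, an inner root sheath-like cluster led by Prr9, in both libraries, at 284.5 and 490.2. Ccnd3 was highest in both libraries in unnamed cluster 22, led by Cd74 and holding markers of myeloid cells and lymphocytes, at 301 and 387, and was at 137 and 169 in DPC-like cells. In myeloid-like cells, led by C1qa and Mrc1, Ccnd3 went from 75.8 to 311 CPM and Ccnd2 from 157 to 22.8, with 63 control and 213 TP cells.

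Cells with mitotic transcripts and cells without them differed in their cyclins. In the TP library, cells with at least 2 mitotic genes had 676 CPM of Ccnd2 and cells with none 169, a ratio of 3.995 (3.75 to 4.25). Ccnd1 had the ratio 2.09 (1.90 to 2.29), and Ccnd3 0.437 (0.350 to 0.539). Over all TP cells, Ccnd3 was thus the D cyclin that was lower in cells with mitotic transcripts. The E cyclins Ccne1 and Ccne2 had ratios of 7.47 and 8.44, and Rrm2 7.45. In control the same ratios were 1.76 for Ccnd2, 1.37 for Ccnd1, 0.657 for Ccnd3, 3.48 for Ccne1 and 3.13 for Ccne2. The cells compared come from all classes, and the ratios within classes differed from these. Within TP IFE basal-like cells Ccnd2 went the other way, with 95.6 CPM in cells with at least 2 mitotic genes and 207.5 in cells with none, and in TP outer bulge-like cells its ratio was 0.679 (0.466 to 0.969). In the other TP classes with enough cells the Ccnd2 ratio was 1.51 (1.15 to 1.97) in inner root sheath-like, 1.40 (1.07 to 1.81) in upper hair follicle-like and 2.30 (0.908 to 4.87) in suprabasal cells, and in control IFE basal-like cells it was 1.12 (0.959 to 1.32). Ccnd1 had smaller ratios in each of the 5 TP classes with enough cells than over all of them. They were 0.812 in IFE basal-like, 0.910 in inner root sheath-like, 1.34 in outer bulge-like, 1.37 in upper hair follicle-like and 1.46 (0.469 to 3.49) in suprabasal cells. Ccne1, Ccne2 and Rrm2 had ratios of 11.2, 5.95 and 8.97 in TP IFE basal-like cells. In TP cells of cluster 14 they had 0.771, 0.771 and 1.72, with intervals that hold 1.

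Over the 26 class levels (13 classes in 2 libraries), the log2 level of 39 of the 40 genes had a Pearson correlation above 0.6 with the summed mitotic genes, which include 22 of them, and Ccnd3 had -0.29. Mki67, Top2a and Kif11 came closest, at 0.99, 0.99 and 0.98. Among the genes outside the 40 with the most similar patterns were Cep55, Cdca2 and Lockd at 0.98 each and Nusap1 at 0.97. These are descriptions over points that share libraries, and the share of all genes above 0.6 was not counted. Mki67 and Top2a are large parts of the sum they were compared with.

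Other cell cycle genes were taken from lists of known members. Over all kept cells, 4 of 38 further replication genes were at least 2-fold lower, a share like the 10.5% of all genes, and none was at least 2-fold higher. Of 72 further mitotic genes, 17 were at least 2-fold lower and 1 at least 2-fold higher. Their median log2 ratios were -0.59 and -0.79, beside -0.23 over all genes. Nasp and Pola1, a histone chaperone and the primase-bound polymerase, had ratios of 0.788 and 0.631. Of the mitotic list, Hmgb2 had 0.729 and Tubb4b, a tubulin that ciliated and other resting cells also use, was the gene at least 2-fold higher, at 2.09. Among 20 regulators, 5 were at least 2-fold lower and none higher, with Cdk4, the kinase bound by D cyclins, at 0.797 and Rb1, the retinoblastoma protein, at 0.708.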

How the data were processed

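Dorsal skin was profiled with the 10x Genomics Chromium GEM-X Single Cell 3' v4 kit, 1 library per group. The authors deposited whole-number UMI counts per gene and barcode, made with Cell Ranger 8.0.1 on mm10 per the labels. Mice given CXCL12-neutralizing antibody were not analysed here.

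Following the study's limits, barcodes were required to have 200 to 8000 genes and no more than 10% mitochondrial UMIs. The study's doublet procedure was rewritten (25% artificial doublets, 30 components, nearest 1%), and 7.5% of cells were removed. Cells were clustered in Seurat 5.3.0 (log normalization, 2000 variable genes, reciprocal PCA, 30 components, Louvain resolution 1). The 40 genes and other cell cycle and histone genes, 393 in all, were kept out. A cluster was named where its class markers scored 1.25 or more (mean log2 level over the mean of all clusters). At least 3 of these markers had to be found in 10% of cells, with no other class scoring within 0.1. Nor could a rival class outnumber it in markers among the 10 top genes. Clusters with haemoglobin genes among these 10, or of low depth, were left unnamed. Cluster 2 therefore had no name, although it scored 1.41 for inner root sheath and 1.142 for the next class. These naming limits were set after the clusters were seen. The planned background classes were replaced after the data were seen: no smooth muscle class was named and inner root sheath-like cells held high mitotic levels, so clusters 5, 7 and 15 were used. Cluster 29, led by Myh11, scored higher on the dermal sheath cup markers than on those of smooth muscle and was named by the former.

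Levels are UMIs per 1000000 UMIs of the same cells (CPM), with exact Poisson 95% intervals. Ratios have exact conditional binomial intervals, and shares Clopper-Pearson intervals. With 1 library per group there was no test. A gene was called at least 2-fold different where the log2 ratio, with 1 UMI added to each library, was 1 or more in size, among genes with 50 UMIs or more in both libraries together. The limit for a count of 0 is 3 cells. Calls were tested on simulated data. PCR duplicates were removed by UMI upstream, but intervals and limits do not cover differences between animals.

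The 40 genes and the gene lists were chosen with earlier results of these data known. In each class or cluster described gene by gene the 3 largest and 3 smallest ratios are named, with the 2 most abundant genes of each further list and the 5 non-members most like the mitotic sum, of which 1 is not reported here. Promoters came from RefSeq, GRCm38.p6; 6 of the 40 genes had none in the table (Mcm4, Ccna2, Ccnd1, Ccne2, Aurkb, Ccnd2), and 2 had 2 promoters. Alternatives were edgeR 4.0.16 TMM factors, doublets or all barcodes kept, other cluster weights, resolutions, features, thinning depths and limits.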

Additional observations from a re-analysis of the deposited data

Results flagged for a closer look

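The summed mitotic genes had a ratio of TP over control of 1.38 in outer bulge-like cells and of 1.06 in melanocyte-like cells, while their interval lay below 1 in the other 11 classes. These classes were picked out because their ratio lay on the other side of 1 from the rest. The direction did not hold under every alternative. The ratio was 0.936 in melanocyte-like cells with doublets kept and 0.913 in outer bulge-like cells with cell cycle genes among the clustering features. In the latter setting clusters are formed partly by the genes measured, so the value of 0.913 cannot decide the direction. With 1 library per group the difference between classes was not tested. In the outer bulge-like cells mitotic UMIs per cell were 3.38 in control and 10.5 in TP, and in the melanocyte-like cells 5.64 and 13.4. Inner root sheath marker UMIs per cell were 6.03 and 2.45 in the outer bulge-like cells, and 9.88 and 3.36 in the melanocyte-like cells. Their part in the result was not tested beyond the subtraction given above.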

How the results depend on the processing

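For the 37 genes other than the D cyclins over all kept cells, the ratio of 0.560 was 0.537 with doublets kept, 0.540 with all deposited barcodes, 0.666 with TMM factors, and 0.914 and 0.831 with the cluster shares of control and of TP in both libraries. The count of 9 genes at least 2-fold lower was 4 with TMM factors, 3 with 0.1 added to counts per 10000, 13 with doublets or all barcodes kept and 0 with the control shares. The share of all genes at least 2-fold lower, 10.5% at first, was 6.02% with TMM factors, 0.808% with 0.1 added, 11.7% and 11.1% with doublets or all barcodes kept and 3.44% with the control shares. In IFE basal-like cells the mitotic ratio was 0.963 with TMM factors, 0.852 with doublets kept, 0.859 with cell cycle genes among the features and 1.18 after subtraction. In germinative layer-like cells the same settings except doublets gave 1.09, 0.749 and 1.07. In inner root sheath-like cells they gave 0.675, 0.668, 0.537 and 0.815, and resolution 0.5 gave 0.758. In outer bulge-like cells they gave 1.56, 1.24, 0.913 and 3.22. With cell cycle genes among the features, clusters are formed partly by the genes measured. The germinative layer-like class was then a cluster of 2485 control and 344 TP cells, beside 460 and 202 otherwise. The value of 0.749 thus comes from different cells. In DPC-like cells the subtraction gave 1.73, which is no corrected ratio, since cluster 15 is a part of that class. The share of cells with mitotic genes in control and TP was 44.8% and 17.2% with doublets kept, 45.2% and 18.4% with all barcodes, 56.7% and 22.8% thinned to 2000 UMIs, 66.5% and 36.6% not thinned, 28.8% and 12.2% at 3 genes, and 13.2% and 7.22% at 5 genes. Replication UMIs per mitotic UMI were 0.243 and 0.352 with doublets kept, and 0.0943 and 0.130 with Mcm2 to Mcm7 alone. The subtraction and the limit of 5 genes were chosen after seeing the data. Where a setting moved a value, the cause was not tested. No paired analysis was possible because each group is 1 pooled library, and for the same reason no replicate could be left out. The depth per cell, with a median of 2045.5 UMIs in control, limits how many mitotic genes a single cell can show.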
